A study of Mus musculus with 6 samples.

Results

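The 6 genes described here make, cut, bind or organise hyaluronan: the receptor gene Cd44, the synthase genes Has1 and Has2, the hydrolase genes Hyal1 and Hyal2, and Vcan, which encodes the proteoglycan versican. They were chosen by name from the 20015 gene rows of 1 count table of mouse quadriceps, the muscle group that extends the knee, with their levels in injured against non-injured libraries in view. All 6 were found, and all 6 are among the 16095 genes that passed a filter on low counts. Because of how they were chosen, their contrast between the groups is given as a description, with no p-value, and edgeR's calls among them are counted once, beside the share of all genes called. There were 3 libraries of ACL-injured quadriceps, where ACL stands for the anterior cruciate ligament that steadies the knee, and 3 of non-injured quadriceps. Each group has a library A, a library B and a library C. The series text places the injured samples before reconstruction surgery. The labels give no strain, age or time after injury, and they do not say from which limb the non-injured muscle came or whether each library is a different animal. All p-values therefore rest on the spread between libraries, which may be technical. The organism label is mouse while the series text and extraction protocol speak of human tissue. The deposited table is titled as myonuclear RNA, from the nuclei of muscle fibres, while the labels give total RNA extracted with TRIzol and mention no isolation of nuclei, so which of these was sequenced is not settled here. Of the rows, 19342 (96.6%) carry the name and position of a mouse gene in GENCODE M21 on mm10.

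Hyaluronan is a long, unbranched sugar polymer of the extracellular matrix. Synthases in the plasma membrane build it and push it out of the cell, hyaluronidases at the cell surface and in lysosomes cut it, and CD44 on leukocytes and mesenchymal cells binds it. Versican attaches to hyaluronan through its N-terminal end and carries chondroitin sulfate chains, and the complexes of both form a hydrated, loose matrix that is known from wounds and developing tissue. In skeletal muscle such matrix lies in the connective tissue around fibres.

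In injured quadriceps, transcripts of the receptor, of versican and of the synthases Has1 and Has2 stood at 3 to 5 times their non-injured level, while transcripts of the 2 hydrolases overlapped between the groups. The level of Cd44 was 4.65-fold, of Has2 3.71-fold, of Has1 3.26-fold and of Vcan 3.20-fold that of non-injured muscle, and the levels of Hyal2 and Hyal1 were 1.22-fold and 1.08-fold. For 4 of the 6 genes the lowest injured library lay above the highest non-injured library, and for 0 of the 6 the groups were separated the other way. Over all genes tested these shares were 11.9% and 9.57%, or 21.5% in either direction. Has1 and Has2 passed the filter on low counts through the injured libraries alone. Genes kept in this way are separated between the groups before scaling, and the 316 such genes had a median log2 fold change of 1.84. Nothing is therefore read from the fold changes or the separation of Has1 and Has2. By edgeR's quasi-likelihood test over all genes, 2 of the 6, Cd44 and Vcan, were past the threshold (adjusted p under 0.05) as higher, and 0 were lower. Of all genes tested 0.715% were higher and 0.0311% lower, or 0.746% in either direction, and with the letter as a replicate block 3.21% were higher and 2.65% lower, or 5.86% in either direction. Because the genes were picked with this contrast known, nothing is read from those counts. In RNA that is not resolved by cell, more cells of a type and more RNA per cell cannot be told apart.

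**Figure D1:**
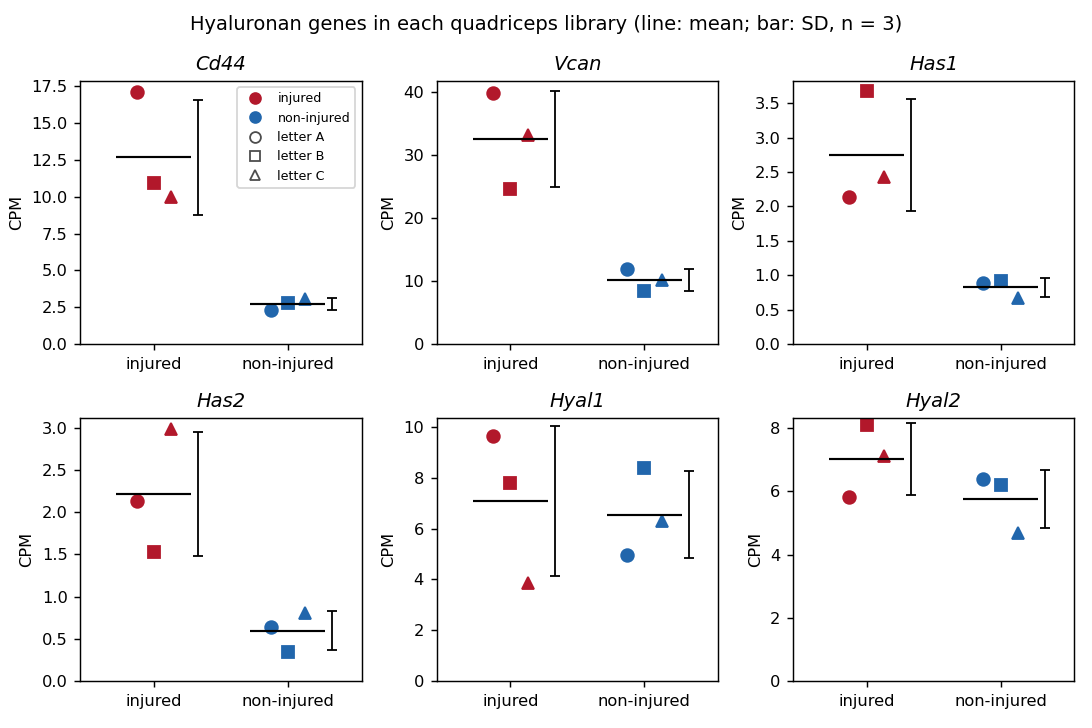
Counts scaled for library size (CPM, y axis, from 0) of the 6 genes in each library, with the 3 injured libraries left and the 3 non-injured libraries right; symbols give the letter, lines the mean and bars the SD (n = 3). Cd44, Vcan, Has1 and Has2 do not overlap between the groups, and Hyal1 and Hyal2 do.

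Library totals were 6.45 to 7.50 M counts for injured and 7.23 to 8.75 M counts for non-injured muscle. Muscle fibre markers (titin Ttn, creatine kinase Ckm, actin Acta1, myosins and others, 9 of 9 in the table) summed to between 189000 and 197000 CPM in injured and between 204000 and 211000 CPM in non-injured libraries, so muscle fibre RNA is present, as the labelled tissue would have it. By edgeR 115 genes rose and 5 fell. With the letter as a replicate block 516 rose and 427 fell, and without non-injured library C 20 rose and 0 fell.

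Cd44, the main cell surface receptor for hyaluronan (ENSMUSG00000005087.17), is a 90525-base gene on the minus strand of mm10 chromosome 2, 102811141 to 102901665. It had 112, 71 and 70 counts in injured libraries A, B and C, against 18, 24 and 23 counts in non-injured libraries A, B and C. Scaled to CPM with TMM library sizes, which removes differences in depth, these were 17.1, 10.9 and 9.97 CPM in injured and 2.30, 2.76 and 3.08 CPM in non-injured libraries. The lowest injured library lay 3.24 times above the highest non-injured one, the widest gap among the 6 genes. Injured library A stood above the other two injured libraries, and non-injured library A was the lowest of its group, so that the ratio within letter A was 7.47-fold, against 3.94-fold in letter B and 3.24-fold in letter C. The means were 12.7 ± 3.92 CPM in injured and 2.71 ± 0.393 CPM in non-injured libraries (SD, n = 3 each), a log2 fold change of 2.22 ± 0.29 (SE). Without both letter A libraries it was 1.83. The table counts whole genes, so the standard and variant forms of CD44, which differ by inserted exons, are not resolved.

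Vcan (ENSMUSG00000021614.16, minus strand of chromosome 13, 89655312 to 89742509) was the most highly counted of the 6, with 14462 exon bases and a mean of 150.0 counts per library. It had 260, 161 and 233 counts in injured libraries A, B and C, against 93, 74 and 76 in non-injured libraries A, B and C. On the CPM scale these were 39.8, 24.6 and 33.2 in injured and 11.9, 8.50 and 10.2 in non-injured libraries. Letter A was highest and letter B lowest in both groups, and the ratio within a letter varied little, at 3.36-fold in A, 2.90-fold in B and 3.26-fold in C. The means were 32.5 ± 7.62 CPM in injured and 10.2 ± 1.68 CPM in non-injured libraries (SD, n = 3 each), a log2 fold change of 1.68 ± 0.21 (SE). As for Cd44, the splice forms of Vcan, which differ in the exons that carry chondroitin sulfate chains, are summed in 1 value.

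The synthase genes were counted far less often. Has1 (ENSMUSG00000003665.7, minus strand of chromosome 17, 17843323 to 17855205) had 14, 24 and 17 counts in injured libraries A, B and C, against 7, 8 and 5 counts in non-injured libraries A, B and C. In CPM it had 2.14, 3.67 and 2.42 in injured and 0.893, 0.918 and 0.669 in non-injured libraries, or 2.74 ± 0.812 against 0.827 ± 0.137 CPM (SD, n = 3 each). Injured library B was the highest, unlike for Cd44 and Vcan. The log2 fold change was 1.70 ± 0.49 (SE). The ratio of the summed counts, 55 for injured and 20 for non-injured muscle, was 3.29 per unit of depth, and counting error alone allows 1.94 to 5.79 (exact 95% interval).

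Has2, the synthase that mouse embryos need for heart development (ENSMUSG00000022367.7, minus strand of chromosome 15, 56665627 to 56694539), had 14, 10 and 21 counts in injured libraries A, B and C, against 5, 3 and 6 counts in non-injured libraries A, B and C. That is 2.14, 1.53 and 2.99 CPM in injured and 0.638, 0.344 and 0.803 CPM in non-injured libraries, with means of 2.22 ± 0.734 and 0.595 ± 0.232 CPM (SD, n = 3 each). Library C was highest and library B lowest in both groups. The log2 fold change was 1.89 ± 0.56 (SE), and the ratio of the summed counts, 45 for injured and 14 for non-injured muscle, was 3.84 (exact 95% interval 2.07 to 7.58, counting error only). The antisense gene Has2os shares 182 exon bases with Has2, and as the strand setting of the counting is not given, reads of the pair cannot be told apart there.

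RefSeq promoter windows on GRCm38.p6, from 250 bases before to 50 after the gene start, matched 5 of the 6 genes and not Has2. Those of Cd44, Vcan and Has1 are shown because these genes were higher in every injured library. Capitals mark the motifs that were found, base 251 of each window is the gene start, and every motif was searched on both strands. The motifs were the TATA box, spelled TATAAA, the box of the nuclear factor NF-Y, spelled CCAAT, the GC box of Sp1, spelled GGGCGG, and the site of the AP-1 factors, spelled TGANTCA. No hit in these 3 windows overlaps another.
Cd44 (chr2:102901616-102901915, minus strand): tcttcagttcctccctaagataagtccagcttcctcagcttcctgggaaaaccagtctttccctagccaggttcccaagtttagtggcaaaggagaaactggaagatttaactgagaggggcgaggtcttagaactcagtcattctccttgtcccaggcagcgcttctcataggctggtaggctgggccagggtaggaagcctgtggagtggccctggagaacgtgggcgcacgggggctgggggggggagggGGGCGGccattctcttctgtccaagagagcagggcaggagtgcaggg
Vcan (chr13:89742463-89742762, minus strand): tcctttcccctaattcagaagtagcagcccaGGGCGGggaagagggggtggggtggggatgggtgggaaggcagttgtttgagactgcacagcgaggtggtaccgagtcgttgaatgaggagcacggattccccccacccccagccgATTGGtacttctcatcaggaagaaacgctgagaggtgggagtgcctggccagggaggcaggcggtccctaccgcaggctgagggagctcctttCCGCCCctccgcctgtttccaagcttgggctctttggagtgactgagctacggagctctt
Has1 (chr17:17855139-17855438, minus strand): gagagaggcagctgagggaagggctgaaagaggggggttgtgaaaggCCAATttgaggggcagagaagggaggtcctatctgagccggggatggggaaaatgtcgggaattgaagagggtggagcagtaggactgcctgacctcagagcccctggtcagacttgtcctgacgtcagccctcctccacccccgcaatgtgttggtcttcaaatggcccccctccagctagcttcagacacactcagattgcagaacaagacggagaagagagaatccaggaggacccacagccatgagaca
Cd44 holds 1 GC box, at base 254. Vcan holds 2 GC boxes, at base 32 and, on the opposite strand, at base 241, and a CCAAT box on the opposite strand at base 148. Has1 holds a CCAAT box at base 48. The GC box occurs in 35.7% and the CCAAT box in 37.4% of all 32851 windows of this length, and the TATA box (13.6% of all windows) and the AP-1 site (7.81%) were found in 0 of the 5 windows. Cd44, Vcan and Has1 share none of the 4 motifs across all 3 windows. The GC content was 58.0% for Cd44, 61.0% for Vcan and 57.0% for Has1, and 58.3% for Hyal2 and 57.0% for Hyal1, whose levels overlapped between the groups, against a median of 52.7% over all windows.

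Both synthase genes passed the filter on low counts through the injured libraries alone. The filter asks for 1.36 CPM in 3 libraries, a level that Has1 and Has2 reached in 3 injured and 0 non-injured libraries. Over the 316 genes of the table that met it in this same way the median log2 fold change was 1.84, and 24 of them were past the edgeR threshold. The 3297 genes with a mean under 20 counts had a median of 0.39, against 0.00 for all genes tested. The values of Has1, 1.70, and Has2, 1.89, lie near that of the 316 genes. In the gene lists described below, Spp1, Tnr, Csf3r, Top2a, Birc5, Fcgr1 and Cd14 also stayed under 1.36 CPM in every non-injured library. Their values, any calls among them and the list medians that include them carry the same limit.

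The hydrolase genes did not separate the groups. Hyal2, a hyaluronidase anchored at the cell surface (ENSMUSG00000010047.12, plus strand of chromosome 9, 107567945 to 107572779), had 38, 53 and 50 counts in injured libraries A, B and C, against 50, 54 and 35 counts in non-injured libraries A, B and C. In CPM these were 5.82, 8.10 and 7.12 in injured and 6.38, 6.20 and 4.69 in non-injured libraries. Injured library A lay below non-injured libraries A and B, and the other two injured libraries lay above all 3 non-injured ones. The means were 7.01 ± 1.14 and 5.75 ± 0.93 CPM (SD, n = 3 each), a log2 fold change of 0.28 ± 0.26 (SE). The ratio of summed counts was 1.21 (exact 95% interval 0.952 to 1.54, counting error only).

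Hyal1, the lysosomal hyaluronidase (ENSMUSG00000010051.15, plus strand of chromosome 9, 107576927 to 107581710), lies just downstream of Hyal2. It had 62.72, 50.92 and 26.68 estimated counts in injured libraries A, B and C, against 39.27, 72.75 and 46.75 in non-injured libraries A, B and C. The corresponding levels were 9.65, 7.79 and 3.84 CPM in injured and 4.97, 8.38 and 6.29 CPM in non-injured libraries. Injured libraries held both the highest and the lowest value, and the ratio within a letter was 1.94-fold in A, 0.93-fold in B and 0.611-fold in C. The means were 7.09 ± 2.96 and 6.55 ± 1.72 CPM (SD, n = 3 each), a log2 fold change of 0.11 ± 0.33 (SE).

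Hyal1 is the 1 gene of the 6 with fractional counts. It shares 1920 of its 3777 exon bases with Naa80, an actin acetyltransferase gene on the same strand, and 159 with Hyal3, and reads from the shared bases could be split between these genes by the counting. Naa80 had 67.28, 91.08 and 92.32 counts in injured libraries A, B and C, against 93.73, 68.25 and 54.25 in non-injured libraries A, B and C. By count, the library lowest for Hyal1 in each group, injured C and non-injured A, was the highest for Naa80. In CPM this held for non-injured A, with 12.0 CPM of Naa80. It did not hold for injured C, with 13.1 CPM of Naa80 against 13.9 CPM in injured B. Hyal1 and Naa80 together came to 19.9, 21.7 and 16.9 CPM in injured and 17.0, 16.2 and 13.5 CPM in non-injured libraries. The highest library stood 1.61 times above the lowest for the sum, against 2.51 times for Hyal1 alone. The Hyal1 values are uncertain for this reason.

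Levels of different genes were compared as CPM per kilobase of exon, using all exons of a gene in GENCODE M21. In injured muscle Vcan had 2.25 ± 0.527, Hyal2 2.13 ± 0.348, Hyal1 1.88 ± 0.785 and Cd44 1.87 ± 0.578 CPM per kb (SD, n = 3), and neighbours in this order overlapped in their ranges. Has1 with 0.607 ± 0.18 and Has2 with 0.524 ± 0.173 CPM per kb overlapped with each other and lay below the other 4 in every injured library. In non-injured muscle Hyal2 with 1.75 ± 0.282 and Hyal1 with 1.73 ± 0.455 CPM per kb overlapped at the top, followed by Vcan with 0.704 ± 0.116 and Cd44 with 0.40 ± 0.0581 CPM per kb, neither of which overlapped with its neighbours. Has1 with 0.183 ± 0.0303 and Has2 with 0.14 ± 0.0548 CPM per kb overlapped at the bottom. Vcan and Cd44 thus shared the range of the hydrolases in injured muscle and lay below them in non-injured muscle.

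**Figure D2:**
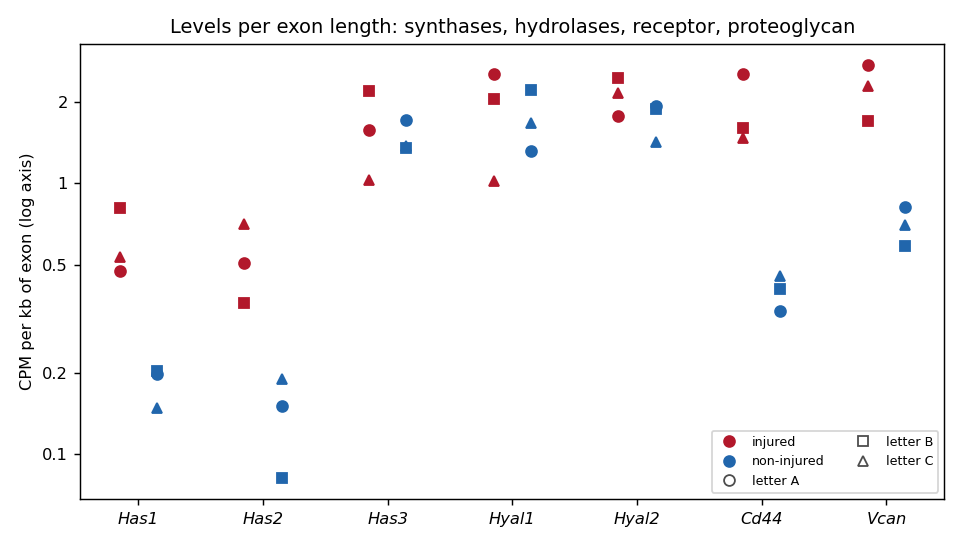
CPM per kb of exon (y axis, log scale) of the 3 hyaluronan synthase genes, the hydrolase genes Hyal1 and Hyal2, Cd44 and Vcan in the 3 injured (left in each pair) and 3 non-injured libraries (right). Has3 spans 1.03 to 2.2 in injured and 1.35 to 1.72 in non-injured libraries, above every value of Has1 and Has2.

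The synthase with the most transcript was neither of these. Has3, the remaining hyaluronan synthase gene, was described after its values were seen. It had 10.1, 14.1 and 6.55 CPM in injured libraries A, B and C, against 11.0, 8.61 and 8.84 CPM in non-injured libraries A, B and C, and the groups overlapped (log2 fold change 0.11 ± 0.27 SE, edgeR adjusted p 0.885). Per kilobase of exon, Has3 made up 61.8%, 65.3% and 45.3% of the summed level of the 3 synthase genes in injured libraries A, B and C, and 83.2%, 82.6% and 80.4% in non-injured libraries A, B and C. The sum was 2.56, 3.38 and 2.27 CPM per kb in injured and 2.07, 1.63 and 1.72 CPM per kb in non-injured libraries, so the groups lay closer together for the sum than for Has1 or Has2. Has3 shares 352 exon bases with Chtf8 on the opposite strand, and its values are uncertain to that extent. Has1 and Has2 together came to 0.227, 0.259 and 0.39 of the level of Hyal1 and Hyal2 in injured libraries A, B and C, against 0.107, 0.0694 and 0.109 in non-injured libraries A, B and C. These ratios leave out Has3, the largest of the 3 synthase levels in every library. They also rest on 2 genes that passed the filter through the injured libraries alone, and on Hyal1, whose values are uncertain. Hyal1 and Hyal2 together had 4.32, 4.52 and 3.18 CPM per kb in injured and 3.25, 4.1 and 3.09 in non-injured libraries. No balance of synthesis and breakdown is read from the ratios.

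Genes that work around these 6 changed in part. Of 89 other gene symbols in 8 lists (precursor synthesis, breakdown, receptors, binding proteins, versican-cleaving proteases, chain synthesis, CD44 partners and versican partners), 72 are in the table and 63 passed the filter. By edgeR 6 rose and 0 fell, against 0.715% of all genes higher and 0.0311% lower, and 10 rose with the letter as a replicate block. DESeq2 called 9 higher and 0 lower, against 1.57% of all genes higher and 0.466% lower, and limma-voom 6 and 0, against 0.329% and 0.0373%. At an unadjusted p under 0.05 by edgeR 16 were higher and 0 lower, against 9.25% of all genes higher and 6.11% lower. Their median log2 fold change was 0.19, against 0.00 over all genes tested. The 6 were the receptor gene Stab1, the CD44 ligand Spp1, the linker Msn, and Fn1, Fbn1 and Tnc of the matrix. All 8 lists were drawn up with earlier results of these data known, and Spp1 and Tnc were known to be higher. Nothing is therefore read from these counts beside the shares of all genes. With 1 library left out, be it injured C or non-injured B or non-injured C, 3 of the 6 rose, and Stab1, Msn and Fbn1 lost the call.

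**Figure D3:**
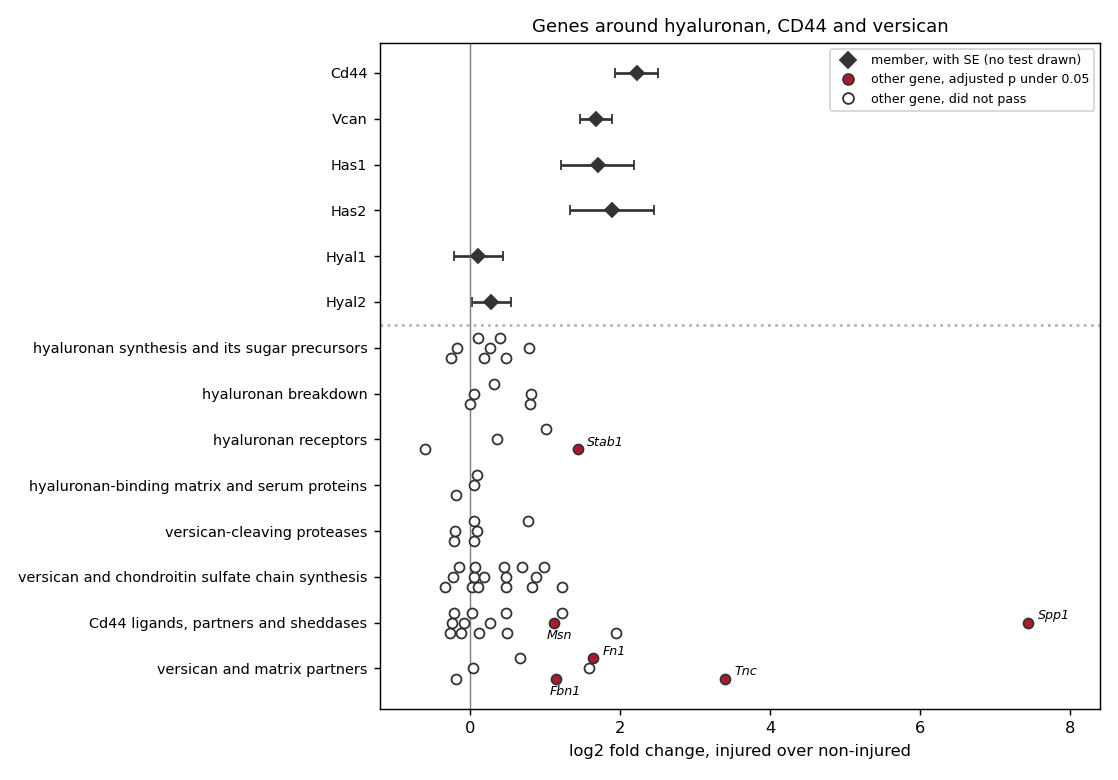
Log2 fold change, injured over non-injured (x axis), of the 6 genes with SE (diamonds) and of 63 other genes in 8 lists (circles), filled where the adjusted p was under 0.05. The 6 filled circles all lie above 0; that of Spp1 rests on 1 count in the non-injured libraries and depends on the fit's prior count.

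Precursor supply and breakdown gave no call. Of 8 genes of hyaluronan synthesis and its sugar precursors 0 passed by edgeR, DESeq2 or limma-voom and 1 had an unadjusted p under 0.05, with a median log2 fold change of 0.22. Ugdh, which makes the glucuronic acid precursor, had 8.19 ± 3.0 CPM in injured and 4.76 ± 0.76 CPM in non-injured libraries (edgeR adjusted p 0.249). Gfpt2 and Gfpt1, which start the hexosamine pathway, had log2 fold changes of 0.48 and -0.25. Of 5 tested breakdown genes 0 passed by any of these tools and 1 had an unadjusted p under 0.05, with a median of 0.32. They summed to 50.8 to 54.4 CPM in injured and 40.8 to 49.1 CPM in non-injured libraries, without overlap, while 0 of the 5 separated the groups alone. The sums of the synthesis and precursor list overlapped, at 215 to 278 CPM in injured and 240 to 283 CPM in non-injured libraries. Gusb, the lysosomal glucuronidase, had a log2 fold change of 0.80 ± 0.34 (SE, edgeR adjusted p 0.28), the hexosaminidase gene Hexa 0.32 ± 0.18 and Cemip, which encodes a hyaluronan-depolymerising protein, 0.81 ± 0.58.

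Among 4 tested receptors other than CD44, 1 rose, against 0.715% of all genes tested. Stab1, a scavenger receptor of macrophages and endothelium, had 33.5, 22.0 and 23.4 CPM in injured libraries A, B and C, against 12.6, 7.92 and 8.43 CPM in non-injured libraries A, B and C. All injured libraries lay above all non-injured ones, and the log2 fold change was 1.44 ± 0.23 (SE, edgeR adjusted p 0.0138). Tlr4, the receptor for bacterial lipopolysaccharide that also responds to matrix fragments, had 7.17 ± 1.93 CPM in injured and 3.57 ± 0.913 CPM in non-injured libraries (SD, n = 3 each; edgeR adjusted p 0.154, and 0.0451 with the letter as a replicate block). Lyve1, the hyaluronan receptor of lymphatic endothelium, and Stab2 of sinusoidal endothelium overlapped between the groups, with log2 fold changes of 0.36 ± 0.33 and -0.60 ± 0.29 (SE). Of 3 tested hyaluronan-binding matrix and serum protein genes 0 passed by edgeR, DESeq2 or limma-voom and 0 had an unadjusted p under 0.05, with log2 fold changes of -0.19 for Itih5, 0.09 for Habp2 and 0.05 for Habp4.

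The genes that process versican also gave no call. Of 6 versican-cleaving proteases 0 passed by edgeR, DESeq2 or limma-voom and 0 had an unadjusted p under 0.05, and the median log2 fold change was 0.05. Adamts1, the most highly counted of them, had 70.7 ± 11.0 CPM in injured and 81.3 ± 18.0 CPM in non-injured libraries (SD, n = 3 each). Adamts4 and Adamts9 had log2 fold changes of 0.77 ± 0.53 and -0.22 ± 0.25 (SE). Of 16 tested genes of chondroitin sulfate chain synthesis 0 passed by these tools and 3 had an unadjusted p under 0.05, with a median of 0.32. The smallest p-values among these belonged to Ust, a sulfotransferase of the chains (4.09 ± 1.24 CPM in injured and 1.75 ± 0.285 CPM in non-injured libraries, edgeR adjusted p 0.168), Dse, which epimerises them (log2 fold change 0.83, edgeR adjusted p 0.249), and Csgalnact1, which starts them (0.88, edgeR adjusted p 0.308).

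CD44 binds osteopontin as well as hyaluronan, and its tail is tied to actin by ezrin, radixin and moesin. Of 14 tested ligands, partners and sheddases 2 rose, against 0.715% of all genes tested. Their median log2 fold change was 0.19. The list was drawn up with Spp1 known to be higher, so nothing is read from this count. Spp1, the osteopontin gene, was counted 204 times over the injured and 1 time over the non-injured libraries (edgeR adjusted p 0.000183). The ratio per unit of depth was 244, and counting error alone allows 43.3 to 9680 (exact 95% interval). Like Has1 and Has2, Spp1 passed the filter on low counts through the injured libraries alone. Msn, the moesin gene, had 39.0, 28.6 and 34.2 CPM in injured libraries A, B and C, against 18.6, 15.2 and 13.0 CPM in non-injured libraries A, B and C (log2 fold change 1.12 ± 0.18 SE, edgeR adjusted p 0.0155). The ezrin gene Ezr had 5.07 ± 1.07 CPM in injured and 1.32 ± 0.714 CPM in non-injured libraries (edgeR adjusted p 0.0633, and 0.0129 with the letter as a replicate block). The radixin gene Rdx had 69.5 ± 5.5 and 83.7 ± 3.87 CPM, with all injured libraries below all non-injured ones (edgeR adjusted p 0.369). Mmp14, a membrane protease that sheds CD44, had 10.6 ± 0.684 and 4.56 ± 1.28 CPM in injured and non-injured libraries (edgeR adjusted p 0.054, and 0.00978 with the replicate block). The sheddase genes Adam10 and Adam17 overlapped between the groups, with log2 fold changes of 0.03 and -0.12, and the rule for named genes does not name them.

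Of 7 tested genes that bind versican or lie beside it in matrix 3 rose, against 0.715% of all genes tested. Their median log2 fold change was 1.15, against 0.00 over all genes tested. The list was drawn up with Tnc known to be higher, so nothing is read from this count or median. Fn1, the fibronectin gene, had 179, 107 and 137 CPM in injured libraries A, B and C, against 38.6, 50.6 and 46.2 CPM in non-injured libraries A, B and C (log2 fold change 1.64 ± 0.19 SE, edgeR adjusted p 0.00182). Fbn1, which encodes the microfibril protein fibrillin-1, had 141, 86.0 and 149 CPM in injured and 47.3, 62.1 and 60.2 CPM in non-injured libraries A, B and C (log2 fold change 1.15 ± 0.20 SE, edgeR adjusted p 0.0238). Tnc, the gene of the versican-binding tenascin C, had 31.5, 24.8 and 17.8 CPM in injured and 2.42, 2.87 and 1.61 CPM in non-injured libraries (edgeR adjusted p 0.000183). Every injured library lay above every non-injured one for each of these genes. Fbln2, the gene of the versican ligand fibulin-2, had 41.7 ± 5.11 CPM in injured and 26.3 ± 2.56 CPM in non-injured libraries (edgeR adjusted p 0.0682, and 0.00642 with the replicate block). Tnr, which passed the filter on low counts through the injured libraries alone, had a log2 fold change of 1.59 ± 0.51 (SE). That of Egfr was -0.19 ± 0.22 (SE).

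Likeness to Cd44 and Vcan was measured over the 6 libraries as the mean absolute difference of log2 CPM, each gene centred on its own mean, among 8197 genes that averaged 50 counts or more and have a standard symbol. Nearest to Cd44 were Lyz2, the lysozyme of phagocytes (0.24), Fn1 (0.25), the collagen gene Col5a2 (0.25), the haem oxygenase gene Hmox1 (0.27) and Vcan (0.28). Nearest to Vcan were the complement gene C1qb (0.07), the matrix gene Emilin2 (0.13), Stab1 (0.14), Fn1 (0.17) and the annexin gene Anxa2 (0.18). Genes that differ alike between the groups score as near on this measure, which shares its libraries with the comparison above. Among the 6 genes themselves, Vcan lay 0.24 from Has2, 0.28 from Cd44 and 0.38 from Has1, but 0.68 from Hyal2 and 0.79 from Hyal1. Within the injured group Cd44 and Vcan were both highest in library A, Has1 was highest in library B and Has2 in library C.

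**Figure D4:**
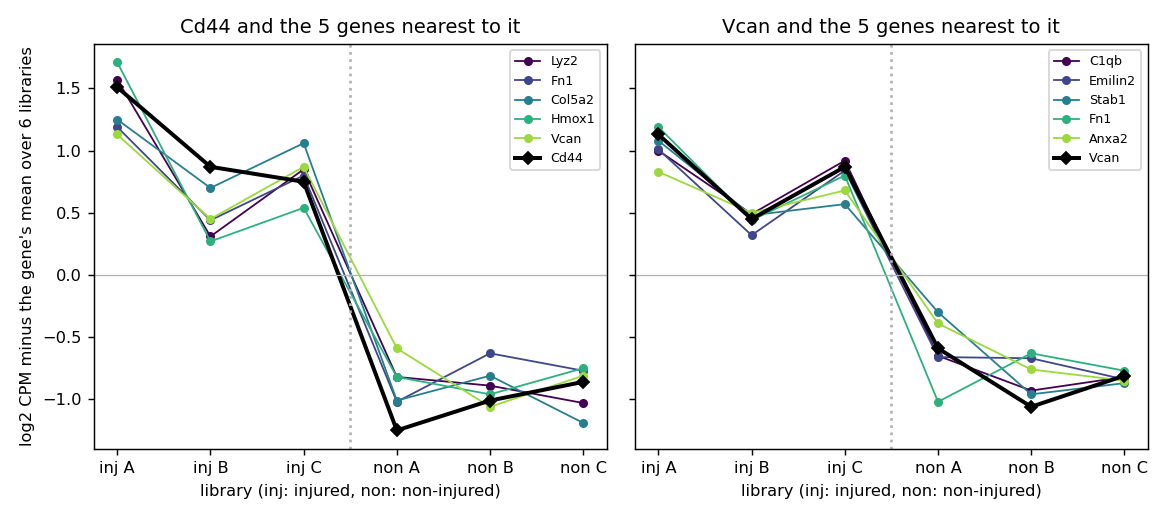
Log2 CPM minus the gene's own mean over the 6 libraries (y axis) for Cd44 (left) and Vcan (right, both black) and the 5 genes nearest to each, in injured libraries A to C and non-injured libraries A to C. The nearest genes lie above 0 in the 3 injured and below 0 in the 3 non-injured libraries.

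Summed macrophage and pan-leukocyte markers were higher in every injured than in any non-injured library, and so were those of neutrophils, dividing cells, and tendon and synovium. The 14 macrophage and monocyte markers, all in the table, summed to 213, 123 and 160 CPM in injured libraries A, B and C, against 72.2, 60.7 and 58.9 CPM in non-injured libraries A, B and C, and 4 of 13 tested rose (Lyz2, Itgam, C1qb and Mrc1), 9 with the replicate block. Of all genes tested 0.715% rose by edgeR and 3.21% with the replicate block. The median log2 fold change of the macrophage list was 1.58. Its most abundant markers by CPM, Lyz2, Mrc1 and Cd163, averaged 55.1, 21.8 and 15.1 CPM in injured and 14.5, 10.6 and 12.2 CPM in non-injured libraries, and Cd163 overlapped between the groups. The 9 pan-leukocyte markers summed to 57.1, 38.5 and 32.3 CPM in injured libraries A, B and C, against 12.6, 13.1 and 8.57 CPM in non-injured libraries A, B and C. Of 5 tested, 2 rose (Laptm5 and Itgb2), 5 with the replicate block, and Laptm5, Lcp1 and Ptprc, which encodes CD45, averaged 10.8, 8.0 and 6.33 CPM in injured and 2.36, 2.39 and 2.75 CPM in non-injured libraries. Markers at 0 were Fcgr1 in non-injured B, Cd48 in injured C and Tyrobp in non-injured C. CD44 is made by leukocytes as well as by mesenchymal cells, and the part of leukocytes in its level was not tested.

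Fibro-adipogenic progenitors, the mesenchymal cells that make muscle matrix, had marker sums of 589 to 696 CPM in injured and 684 to 762 CPM in non-injured libraries, and 0 of 12 markers passed by edgeR, DESeq2 or limma-voom, with 3 at an unadjusted p under 0.05 and a median log2 fold change of 0.13. With the replicate block 1, Cxcl14, rose. Gsn made up most of the sum, with 406, 339 and 424 CPM in injured libraries A, B and C, against 532, 447 and 467 CPM in non-injured libraries A, B and C. Without Gsn, a choice made after seeing the data, the other 11 markers summed to 250 to 272 CPM in injured and 218 to 237 CPM in non-injured libraries, so every injured library was then the higher. Of the 12 markers 4 (Pdgfra, Lum, Pi16 and Cxcl14) were higher in every injured library, 1 (Gsn) was lower in every one and 7 overlapped. Over all genes tested 11.9% were higher and 9.57% lower in this way. Pi16 was 1.53-fold and Cxcl14 1.52-fold the non-injured level, and Dcn and Smoc2 averaged 70.7 and 44.5 CPM in injured and 70.5 and 41.9 CPM in non-injured libraries. Pdgfra, which defines these cells, averaged 30.9 CPM in injured and 22.6 CPM in non-injured libraries, with no overlap (edgeR adjusted p 0.226). Markers of tendon and synovium, whose lining cells make hyaluronan, summed to 140 to 179 CPM in injured and 70.5 to 81.8 CPM in non-injured libraries, with 6 of 8 in the table and Tnmd and Mkx not listed there. Of the 6, Prg4 (58.2 ± 10.7 CPM in injured and 15.3 ± 4.14 CPM in non-injured libraries) and Cilp rose, and 4 rose with the replicate block. Thbs4 averaged 32.5 and 18.5 CPM in injured and non-injured libraries (edgeR adjusted p 0.059). Dividing-cell markers summed to 20.4 to 38.8 CPM in injured and 5.36 to 9.76 CPM in non-injured libraries, and 1 of 5 tested, Mki67, rose (4 with the replicate block). The part of these cells in the levels of Cd44, Vcan, Has1 and Has2 was not tested.

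Of 8 endothelial, 5 lymphatic endothelial, 8 pericyte and smooth muscle, 7 satellite cell and myoblast, 9 fibre, 4 Schwann cell and 1 lymphocyte genes tested 0 passed by edgeR, DESeq2 or limma-voom, and 1 satellite cell and 1 Schwann cell gene had an unadjusted p under 0.05, with median log2 fold changes of 0.25, 0.39, 0.13, 0.11, -0.02, 0.53 and -0.65 in that order. Their most abundant markers had log2 fold changes of 0.08 for Cdh5, 0.22 for Kdr and 0.30 for Pecam1 of endothelium, 0.39 for Prox1, 0.45 for Flt4 and 0.35 for Mmrn1 of lymphatics, and -0.27 for Abcc9, 0.11 for Rgs5 and 0.14 for Notch3 of pericytes and smooth muscle. They were 0.11 for Sdc4, -0.07 for Myod1 and 0.22 for Cdh15 of satellite cells, -0.10 for Ttn, 0.00 for Neb and -0.31 for Myh4 of fibres, 0.87 for Mbp and 0.80 for Sox10 of Schwann cells, and -0.65 for Cd3e of lymphocytes. The other lymphocyte markers in the table were under the filter, with 2.11 CPM in injured and 0.699 CPM in non-injured libraries for Cd8a and 1.4 and 0.336 CPM for Ms4a1, both higher in every injured library. Neutrophil markers, with 3 of 6 in the table, summed to 4.56 to 10.1 CPM in injured and 0.893 to 1.49 CPM in non-injured libraries, and the 1 tested, Csf3r, rose. Csf3r passed the filter on low counts through the injured libraries alone, and limma-voom did not call it. S100a9 was at 0 in non-injured A and Cxcr2 in non-injured C, and the dividing-cell marker Ccnb1 in injured C. Adipocyte markers summed to 20.2 to 27.4 CPM in injured and 37.7 to 59.9 CPM in non-injured libraries, with a median log2 fold change of -1.10 over 6 genes. By edgeR, DESeq2 or limma-voom 0 of them passed and 5 were lower at an unadjusted p under 0.05, and 3 (Plin1, Cidec and Cfd) fell with the replicate block. Endothelial sums were 95.7 to 103 CPM in injured and 80.3 to 93.0 CPM in non-injured libraries. Over all 14 lists 10 of 90 tested markers rose and 0 fell, and 24 rose and 3 fell with the replicate block. Of all genes tested 0.715% rose and 0.0311% fell by edgeR, and 3.21% rose and 2.65% fell with the replicate block. The marker lists were drawn up with earlier results of these data known, so nothing is read from these counts beside those shares. Without non-injured C 3 of the markers rose, without injured C 5, and without injured A or non-injured B 6.

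**Figure D5:**
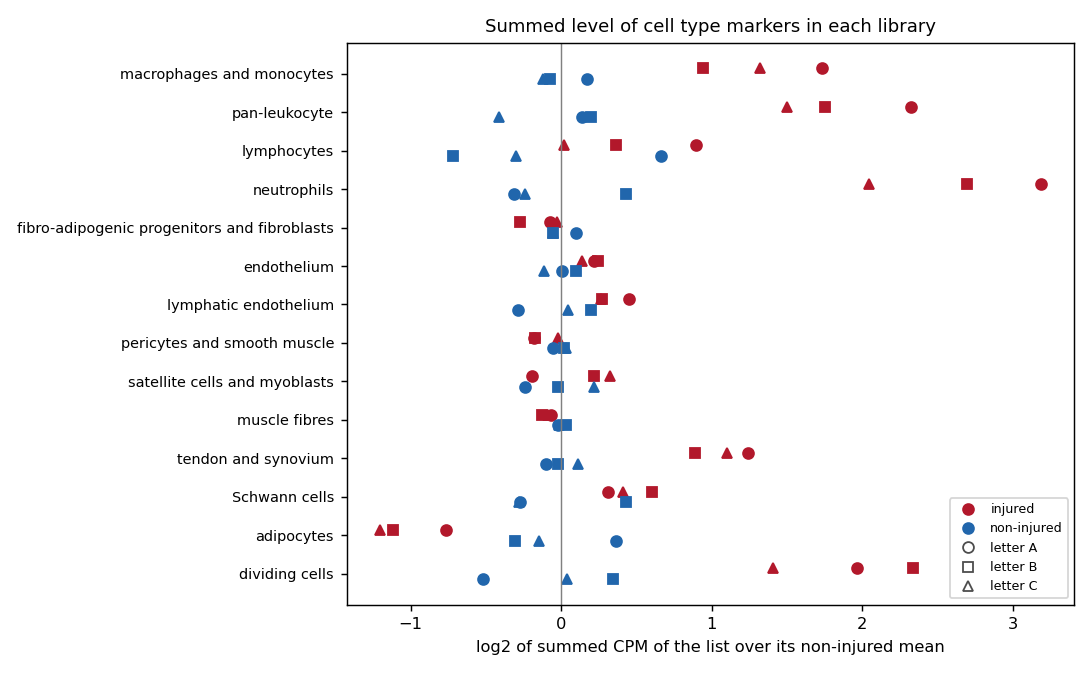
Log2 of the summed CPM of each marker list over its mean in the non-injured libraries (x axis), with injured libraries in red above non-injured libraries in blue in each row. Macrophage, pan-leukocyte, neutrophil, tendon and synovium, and dividing-cell sums of the injured libraries lie furthest right, and the fibroblast sums, of which Gsn is the largest part, overlap.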

How the data were processed

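RNA from 3 injured and 3 non-injured quadriceps was sequenced. The estimated counts per gene were deposited by the authors in 1 table, with 72.24% to 74.54% of values whole. STAR 2.7.8a, Partek and DESeq2, and the builds mm10 and hg19, are named, per the submitters' processing notes, with no role given. What counter, strand setting and annotation release were used is not given in the sources used here. Rows whose highest value is under 10.0 are not in the table, and no per-sample column was left out.

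Counts were rounded, filtered with edgeR's filterByExpr (16095 of 20015 genes kept), TMM-scaled and fitted in edgeR 4.0.16 under R 4.3.3 by the two-sided quasi-likelihood F test, with Benjamini-Hochberg adjustment over all genes and 0.05 as the threshold. SE is the size of the log2 fold change divided by the root of F. CPM use TMM-scaled totals, log2 CPM a prior count of 2, and levels per length all exons in GENCODE M21. DESeq2 1.42.0, limma-voom (limma 3.58.1), other scalings and filters, unrounded counts and left-out libraries were tried. Intervals are exact (Clopper-Pearson) at 95% and cover counting error only, and depth limits the synthase genes most.

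Same-letter libraries deviated together from their group means (r across 16095 genes 0.316 for A, 0.208 for B and 0.112 for C). For unlike letters r ran from -0.232 to 0.064, the latter for injured B with non-injured C. The labels do not explain the letters, so a shared animal and a shared processing step cannot be told apart. The letters were taken as replicate blocks on this ground, and the blocked fit is given where it moves a result.

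The 6 genes and all lists were chosen with earlier results of these data known. Named were the 6 genes, every list gene past the threshold, up to 3 more per pathway list with the smallest p, the 5 genes nearest to Cd44 and to Vcan, and up to 3 markers with the highest CPM per cell type list, of which 1 is not reported here. Other genes named as passing or as components were chosen after their values were seen.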

Additional observations from a re-analysis of the deposited data

How the results depend on the processing

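Of the 6 genes 2, Cd44 and Vcan, were past the threshold in each of the 15 alternatives, from which nothing is read, since the genes were chosen with this contrast known. A filter at a mean of 50 counts removed Has1, Has2 and Hyal2. Cd44's log2 fold change was 1.83 without both letter A libraries. With 1 library left out it was 1.92 to 2.35 for Cd44, 1.49 to 1.84 for Vcan, 1.44 to 1.84 for Has1, 1.59 to 2.13 for Has2, 0.13 to 0.38 for Hyal2 and -0.19 to 0.39 for Hyal1, whose sign is not determined. The counts over all genes moved more. Higher genes numbered 252 with DESeq2, 53 with limma-voom and 516 with the replicate block, and 20 to 104 with 1 library left out, lowest without non-injured C (20), injured C (36), non-injured B (46), injured A (62) and injured B (70). Lower genes numbered 75 with DESeq2, 427 with the replicate block, 17 without a filter, 3 among genes averaging 50 counts or more, 133 without both letter A libraries and 0 to 25 with 1 library left out. Pathway genes higher numbered 10 with the replicate block and 3 to 6 with 1 library left out, with 0 lower. Cell type markers higher numbered 18 with DESeq2, 6 with limma-voom, 24 with the replicate block, 5 among genes averaging 50 counts or more and 3 to 9 with 1 library left out, and lower ones 3 with the replicate block, 1 without both letter A libraries and 0 to 1 with 1 library left out. The cause of these moves was not tested. Has1 and Has2, with 3 to 24 counts per library, are limited by depth.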

Other observations

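Gm4117, annotated as antisense in GENCODE M21 (plus strand of chromosome 13, 89739460 to 89887166), overlaps the 5′ end of Vcan, and was chosen after its values were seen. It shares 0 exon bases with Vcan. It had 84, 123 and 58 counts in injured libraries A, B and C, against 37, 51 and 32 counts in non-injured libraries A, B and C, with no overlap between the groups. The log2 fold change of Gm4117 was 1.42 ± 0.30 (SE), and it did not pass (edgeR adjusted p 0.0502). Library B was the highest for Gm4117 in both groups and the lowest for Vcan in both groups. As no exon base is shared, exon reads of Vcan and Gm4117 fall on different bases whatever the strand setting. Whether reads outside exons were counted is not given.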
